A study of Mus musculus with 4 samples.

Results

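The cytochrome P450 family was followed in whole inguinal mammary gland of mice at postnatal day 10, in which expression had been measured on Affymetrix arrays. The 2 groups were Mt2-mmp(-/-) mice, which lack the membrane-anchored metalloproteinase Mt2-mmp (gene symbol Mmp15) in every tissue, and Mt2-mmp(+/+) littermates, each with 2 arrays, and both genotypes were congenic on C57Bl/6J. The members were all genes whose only annotated symbol is Cyp followed by a digit, without Cyp51, and each was read from its probe set with the highest mean. This gave 67 of 17097 genes, among them 1 annotated pseudogene, Cyp4f41-ps. How many animals went into each array and their sex are not stated in the labels, nor which part of the gene was removed, so p-values measure only the spread between these arrays.

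P450 enzymes are haem proteins that insert an oxygen atom from molecular oxygen into small lipophilic molecules, with electrons handed over by a reductase in the endoplasmic reticulum or by ferredoxin in mitochondria. Some members clear drugs, solvents and plant compounds and are best known from liver, while others make or break down signalling lipids, steroid hormones, bile acids, vitamin D and retinoic acid in particular cells. The mammary gland at this age is a small epithelial tree inside a fat pad, so P450 messages of adipocytes, fibroblasts, vessels and epithelium are measured together.

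All values are the deposited RMA log2 values, and a log2 fold change is knockout minus wild type. The arrays correlated at 0.995 across genes within the knockout pair and at 0.995 within the wild-type pair. Markers of the labelled tissue were present: 10 of 12 luminal, 9 of 9 basal and 9 of 9 white adipocyte markers lay above background on every array. Hair follicle and epidermal markers differed between arrays of 1 genotype: their mean was 6.85 on knockout 1 and 6.65 on wild type 2 but 4.30 and 4.32 on the other arrays. This split crosses the genotypes. Its part in the P450 values was not tested. No probe set was named for Mmp15, and the targeted gene was not analysed here.

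Of the 67 P450 genes 21 were above background on all 4 arrays, or 31.3% of the family, where 70.2% of all genes measured were. Background was the 95th percentile of 23 nonspecific control probe sets on each array, a log2 value of 4.49 to 4.56. A further 4 members passed this limit on 1 to 3 arrays (Cyp2c70, Cyp26a1, Cyp26b1 and Cyp4f15), and 42 passed it on none. Just inside the limit lay Cyp24a1, with 4.62 to 4.70, and just outside it lay Cyp2c70, with 4.52 to 4.68. With the 99th percentile of the controls as the limit, 8 members were above it: Cyp1b1, Cyp27a1, Cyp2d22, Cyp2e1, Cyp2j6, Cyp4b1, Cyp4f13 and Cyp4f16. Over the alternatives tried the count ran from 8 to 26. A gene below the limit may still be expressed in few cells of the gland.

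**Figure D1:**
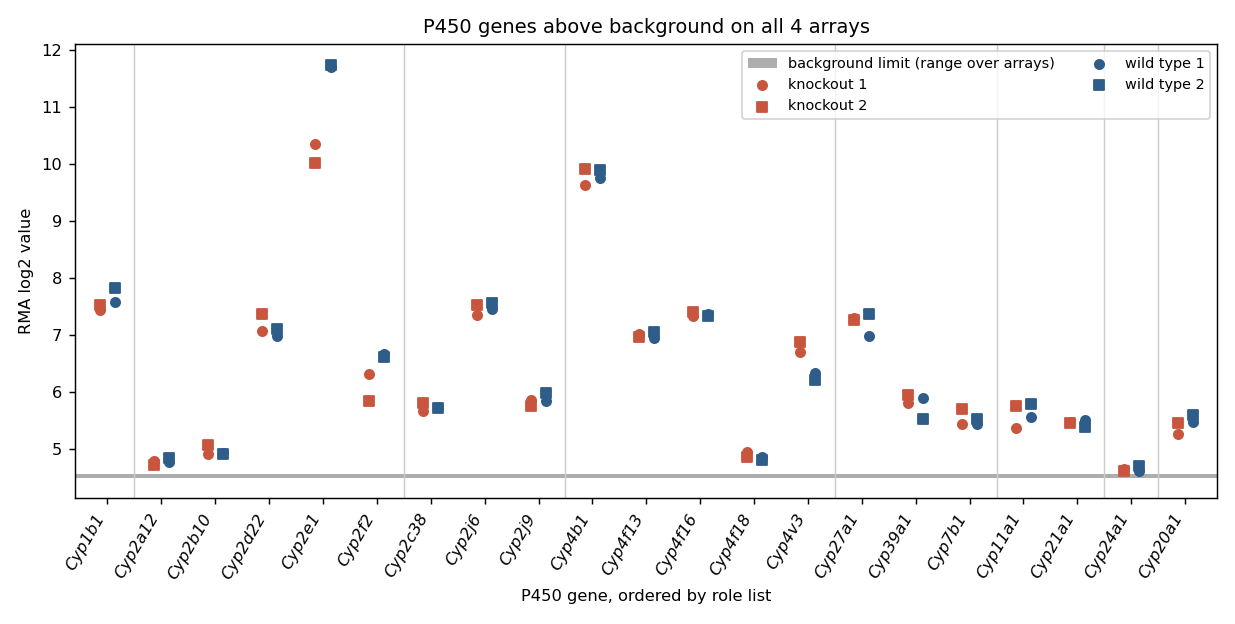
RMA log2 values (vertical axis) of the 21 P450 genes above background on all 4 arrays, ordered by role list, with knockout arrays in red, wild-type arrays in blue, replicate 1 as circles, replicate 2 as squares and the background limit as a grey band. Cyp2e1 lies at 10.34 and 10.02 in knockouts against 11.69 and 11.73 in wild type; values of different genes come from different probes and cannot be ranked against each other.

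Some members best known from liver were among the genes at background. All 6 Cyp3a genes, which clear many drugs, lay at log2 values from 3.06 to 3.79, and of the 8 Cyp2c genes only Cyp2c38 was above the limit on every array. The peroxisome-proliferator-inducible fatty acid hydroxylase Cyp4a10 had 3.76 to 3.84, and its relatives Cyp4a12a and Cyp4a31 were also below the limit on all arrays. So were Cyp7a1, the rate-limiting enzyme of bile acid synthesis, Cyp8b1, which acts further along the same pathway, and Cyp17a1, which is needed for androgen synthesis. Other members of the same role lists were above the limit on all 4 arrays. In the list of drug and small-molecule oxidation these were Cyp2e1, Cyp2f2, Cyp2d22, Cyp2b10 and Cyp2a12. In the list of oxysterol and bile acid metabolism they were Cyp27a1, Cyp39a1 and Cyp7b1. Of the hepatocyte markers 10 of 14 were below the limit on every array, among them Ttr, Apoa1, Serpina1a and Cps1, while Alb, Fgg, Apoa2 and Apoh were above it on all 4.

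The question put to the knockout comparison was whether loss of Mt2-mmp alters the gland's P450 messages. None of the 67 genes passed an adjusted p of 0.05 by limma (0 genes, against 0.00585% of all genes, which is 1 gene, Gadd45gip1). At an unadjusted p under 0.05 limma gave 6 members, or 8.96%, beside 7.01% of all genes, so this count is near the background share. On the lower side were 5 of them, Cyp2e1, Cyp2f2, Cyp2d34, Cyp11b1 and Cyp2c29, beside 3.38% of all genes, and on the higher side 1, Cyp4v3, beside 3.63%. Cyp2d34, Cyp11b1 and Cyp2c29 were below the background limit on every array. Without knockout 2 the count was 3. The values of the genotypes did not overlap in 20 members (29.9%), beside 37.6% of all genes: 15 lay lower in knockouts (22.4%, beside 19.4%) and 5 higher (7.46%, beside 18.2%). The median log2 fold change of the family was -0.006, with 29 genes above and 38 below 0, beside a median of -0.002 over all genes, and it was -0.033 without wild type 1. Differences of at least 0.5 were seen in 3 members, Cyp2e1, Cyp2f2 and Cyp4v3 (4.48%, beside 1.06% of all genes), and of at least 1 only in Cyp2e1 (1.49%, beside 0.14%).

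**Figure D2:**
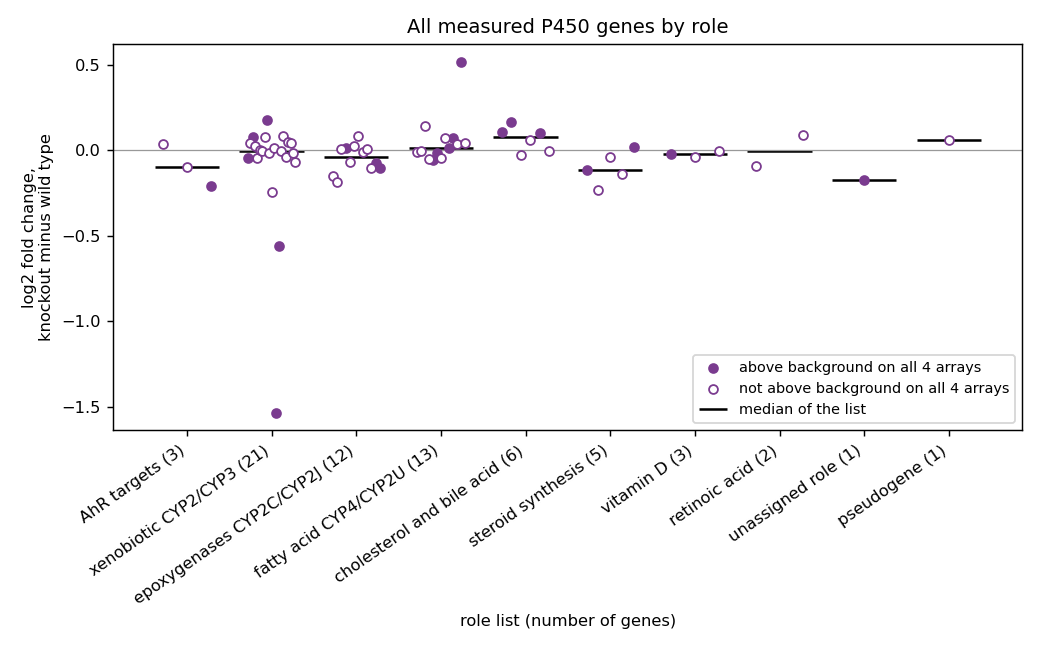
Log2 fold change, knockout minus wild type (vertical axis), of all 67 P450 genes grouped by role list (horizontal axis, number of genes in brackets), with filled points for genes above background on all 4 arrays, open points for the others and a bar at each list's median. Cyp2e1 (-1.53) and Cyp2f2 (-0.56) in the xenobiotic list and Cyp4v3 (0.52) in the fatty acid list stand away from the rest, which lie between -0.25 and 0.18.

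The stretches before the start sites of these 3 genes are shown because they carry the differences of at least 0.5 in the family. Each is the 250 bases before the RefSeq start on assembly GRCm38.p6, read 5′ to 3′ on the gene's strand, and capitals mark letters that match a searched motif. The positions are RefSeq's, and the build behind the array annotation is not given in the sources used here. Cyp2e1 lies at chr7:140763569-140763818 (plus strand), Cyp2f2 at chr7:27119705-27119954 (plus strand) and Cyp4v3 at chr8:45333164-45333413 (minus strand).
Cyp2e1: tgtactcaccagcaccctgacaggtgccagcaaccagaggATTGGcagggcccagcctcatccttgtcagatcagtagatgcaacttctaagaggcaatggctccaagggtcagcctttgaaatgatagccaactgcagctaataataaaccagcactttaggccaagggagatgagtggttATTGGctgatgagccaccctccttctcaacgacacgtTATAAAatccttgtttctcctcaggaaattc
Cyp2f2: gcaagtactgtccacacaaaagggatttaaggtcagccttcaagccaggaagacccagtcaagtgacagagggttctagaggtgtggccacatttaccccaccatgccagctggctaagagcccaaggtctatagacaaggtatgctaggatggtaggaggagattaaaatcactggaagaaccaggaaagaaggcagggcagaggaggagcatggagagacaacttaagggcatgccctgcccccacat
Cyp4v3: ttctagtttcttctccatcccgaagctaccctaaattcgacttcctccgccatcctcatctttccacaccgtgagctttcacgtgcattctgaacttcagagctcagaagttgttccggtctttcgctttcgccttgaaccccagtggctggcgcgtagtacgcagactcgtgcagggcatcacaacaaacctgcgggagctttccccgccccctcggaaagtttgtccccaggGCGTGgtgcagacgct

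The motifs searched, on both strands, were the TATA box TATAAA, the CCAAT box CCAAT, the core of the aryl hydrocarbon receptor element GCGTG, a direct repeat of AGGTCA with any base between the copies, which PPAR and related receptors bind, and the site of the hepatocyte factor HNF1, read as GTTAAT, any base and ATTAAC. None of the marked matches overlap. A match describes letters in this window and is not a measured binding site. Cyp2e1 held TATAAA 31 to 26 bases before its start and CCAAT on the minus strand at 210 to 206 and 68 to 64 bases. Cyp4v3 held GCGTG at 16 to 12 bases, and Cyp2f2 held none of the 5 motifs. In the table of start sites 48 of the 67 members were matched by gene ID. Of these, 19 (39.6%) held TATAAA, beside 14.3% of all genes in the table. Among the matched members above background on all arrays 3 of 16 held it (Cyp2a12, Cyp2c38 and Cyp2e1), and among the other members 16 of 32. CCAAT was in 39.6% of the members and 37.5% of all genes, and GCGTG in 22.9% and 30.9%. The direct repeat and the HNF1 letters were in no member's window, and in 0.0407% and 0.0111% of all genes' windows.

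Among the P450s that oxidise drugs, solvents and other small molecules, Cyp2e1 was the gene with the widest separation. It encodes the ethanol- and acetone-inducible P450, which also hydroxylates fatty acids. Knockout 1 stood at a log2 value of 10.34 and knockout 2 at 10.02, while wild type 1 stood at 11.69 and wild type 2 at 11.73. Both knockout arrays lay below both wild-type arrays, and the nearest values of the genotypes were 1.35 apart. The means were 10.18 ± 0.228 and 11.71 ± 0.033 (SD, n = 2 arrays each). Their difference was -1.53 on the log2 scale (SE 0.121, 95% interval -1.84 to -1.22), or 2.89-fold lower with an interval of 2.33-fold to 3.59-fold. It did not pass over all genes (limma adjusted p = 0.326, and 0.127 to 0.716 over the alternatives tried). Among the 17097 genes it ranked 3 by unadjusted p, 7 by the size of the difference in either direction and 3 among the lower genes. With 1 array left out at a time the difference ranged from -1.69 to -1.37. A single probe set measured Cyp2e1, so no second reading from other probes was at hand.

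**Figure D3:**
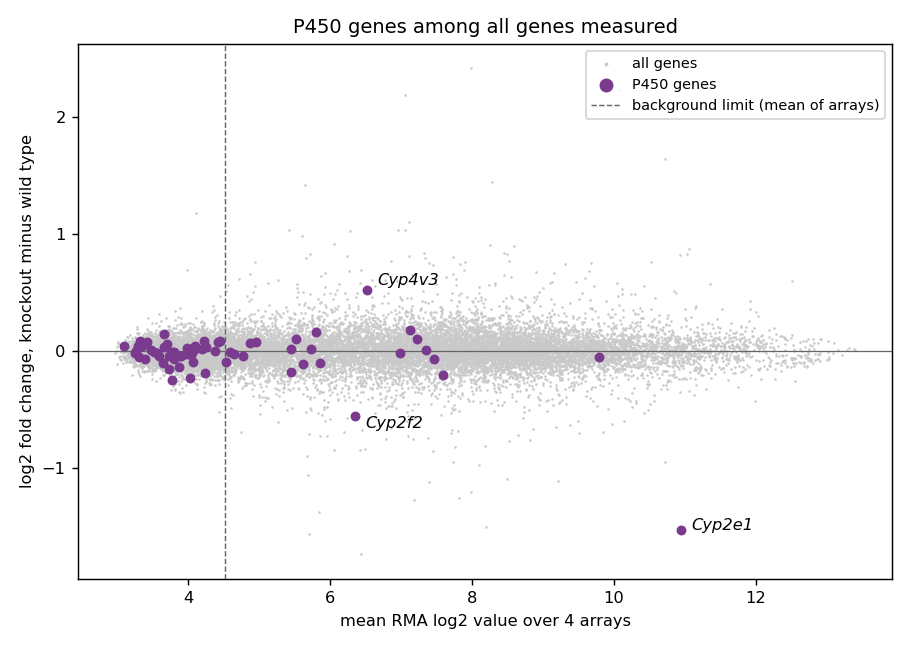
Log2 fold change, knockout minus wild type (vertical axis), against the mean RMA log2 value over the 4 arrays (horizontal axis) for all 17097 genes (grey) and the 67 P450 genes (purple), with the background limit as a dashed line. Cyp2e1 lies at a mean of 10.95 and a fold change of -1.53, far below the grey band, and most other P450 genes lie at or left of the limit with differences near 0.

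Cyp2f2, known for activating naphthalene in the airway, had log2 values of 6.31 and 5.84 in knockouts 1 and 2 and 6.66 and 6.61 in wild type 1 and 2. The knockout arrays were both lower but differed from each other by more than knockout 1 differed from wild type. The log2 fold change was -0.56 (SE 0.161, 95% interval -0.97 to -0.15, limma adjusted p = 0.693, 0.575 to 1.0 over the alternatives). It was -0.33 without knockout 2 and -0.79 without knockout 1. Cyp2f2 lies in a cluster of Cyp2 genes on chromosome 7, where its nearest measured relatives Cyp2a12, Cyp2a5, Cyp2g1 and Cyp2b19 had fold changes of -0.05, 0.04, -0.004 and -0.05. Only Cyp2a12 of those 4 was above background on all arrays.

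The remaining small-molecule P450s above background showed no separation of the genotypes. Cyp2d22, a member of the drug-oxidising CYP2D group, had 7.06 and 7.36 in knockouts and 6.97 and 7.09 in wild type. Its log2 fold change was 0.18 (95% interval -0.13 to 0.48) and 0.03 without knockout 2; the dimmer probe set of the gene had 0.21. Cyp2b10, the classic target of the constitutive androstane receptor, had 4.91 to 5.07 and a fold change of 0.07 (95% interval -0.13 to 0.28), and its other probe sets, both below background, had -0.10 and -0.000252. Cyp2a12, a steroid-hydroxylating member, had 4.72 to 4.84. In the list of 21 such genes 9 were above and 12 below 0, with a median of -0.004 and 0 past the threshold.

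Of the aryl hydrocarbon receptor targets only Cyp1b1 was above background; it oxidises oestradiol and polycyclic hydrocarbons and is typical of stromal cells. Cyp1b1 had 7.44 and 7.53 in knockouts and 7.57 and 7.82 in wild type, so the genotypes did not overlap, with gaps smaller than the spread of the wild-type pair. The log2 fold change was -0.21 (SE 0.104, 95% interval -0.48 to 0.06, limma adjusted p = 0.747), -0.08 without wild type 2 and -0.33 without wild type 1. Its dimmer probe sets, at 3.78 to 4.29, had 0.02 and -0.09. Cyp1a1 and Cyp1a2, the inducible hydrocarbon oxidases of liver and barrier tissues, stayed below the limit on all arrays. The receptor itself, Ahr, had a log2 fold change of -0.26 with no overlap of the genotypes (SE 0.071, limma adjusted p = 0.693), but its dimmer probe set had -0.03; its repressor Ahrr was below background.

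Fatty acid hydroxylases of the CYP4 branch held the only member more than 0.5 above 0. Cyp4v3, a fatty acid omega-hydroxylase whose human counterpart is mutated in a crystalline retinal dystrophy, had 6.70 and 6.87 in knockouts 1 and 2 and 6.33 and 6.20 in wild type 1 and 2. The genotypes did not overlap. The means were 6.78 ± 0.118 and 6.26 ± 0.0933 (SD, n = 2 arrays each), which differ by 0.52 on the log2 scale (SE 0.092, 95% interval 0.28 to 0.75, limma adjusted p = 0.651, 0.36 to 0.932 over the alternatives), or 1.43-fold. Its second, dimmer probe set had 4.58 and 4.58 against 4.42 and 4.16, a difference of 0.29 in the same direction. That probe set lay near the background limit, above it on both knockout arrays and below it on both wild-type arrays. The brighter probe set carries the suffix s_at, by which Affymetrix marks probes shared with another transcript. Cyp4v3 lies on chromosome 8, as Mmp15 does, with 344 measured genes between them, and its 10 nearest measured neighbours had fold changes of -0.10 to 0.09. Of these neighbours Adam34, Klkb1 and Ccdc110 were below background on every array.

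The other CYP4 genes above background were level between genotypes. Cyp4b1, a fatty acid and furan oxidase chosen here after its values were seen, had 9.62 and 9.90 in knockouts and 9.75 and 9.88 in wild type. Its log2 fold change was -0.06 (SE 0.116), with a 95% interval of -0.35 to 0.24. Cyp4f13 and Cyp4f16, named likewise, had -0.01 and 0.01, with intervals of -0.20 to 0.17 and -0.16 to 0.18, and Cyp4f18, which inactivates leukotriene in neutrophils, had 0.07 (95% interval -0.12 to 0.25). The list of 13 had 7 genes above and 6 below 0, a median of 0.01 and 0 past the threshold.

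**Figure D4:**
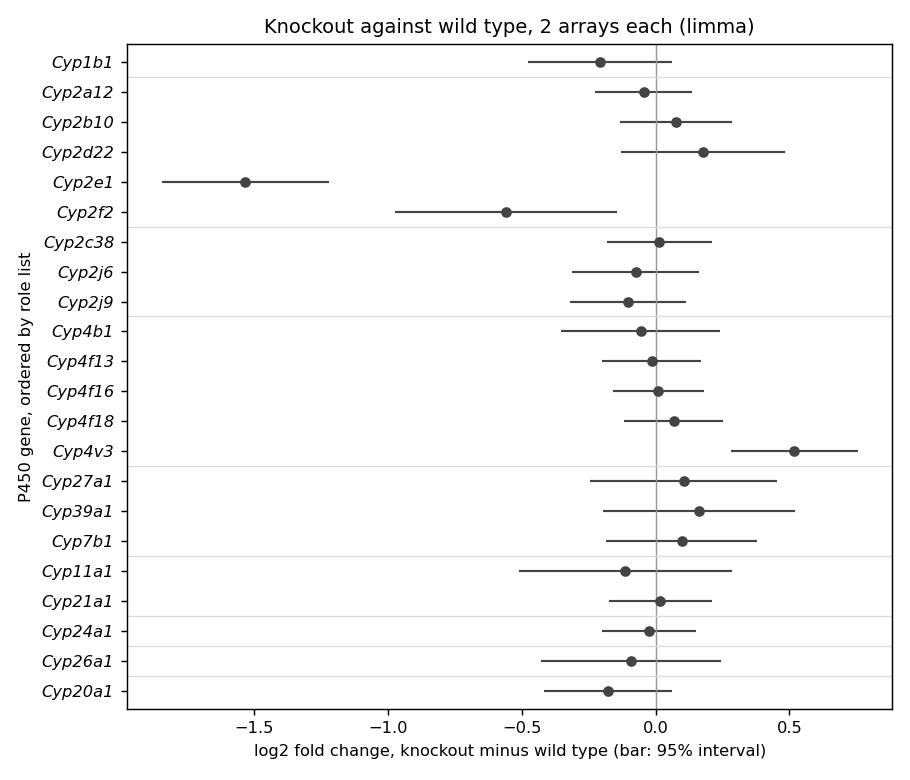
Log2 fold change, knockout minus wild type (horizontal axis), with its 95% interval from limma (bar) for the 21 P450 genes above background on all arrays and Cyp26a1, ordered by role list (vertical axis), from 2 arrays per genotype. The intervals of Cyp2e1, Cyp2f2 and Cyp4v3 leave out 0 and those of the other 19 genes shown include it.

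Arachidonic acid epoxygenases, found in the CYP2C and CYP2J groups, make vasoactive epoxides from a membrane fatty acid. The list holds all measured genes of these groups by name, and whether each is an epoxygenase was not checked. Cyp2j6 had 7.34 and 7.53 in knockouts and 7.45 and 7.56 in wild type, and Cyp2j9 had 5.86 and 5.75 against 5.84 and 5.98. The values overlapped in both genes, with fold changes of -0.07 (95% interval -0.31 to 0.16) and -0.10 (95% interval -0.32 to 0.11). The dimmer probe set of Cyp2j6 had 5.72 and 5.82 against 5.94 and 5.98, without overlap and with a difference of -0.19 (limma adjusted p over all probe sets = 0.728). Cyp2c38 had 5.67 to 5.80 and a fold change of 0.01. The list of 12 had a median of -0.04, with 5 genes above and 7 below 0 and 0 past the threshold.

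Of the 6 enzymes of oxysterol and bile acid metabolism 3 were measured above background. Cyp27a1, the mitochondrial sterol hydroxylase, had 7.29 and 7.25 in knockouts and 6.98 and 7.36 in wild type, so the knockout values lay between the wild-type values. Cyp39a1 and Cyp7b1, which hydroxylate oxysterols, had 5.81 and 5.94 against 5.90 and 5.53, and 5.44 and 5.71 against 5.43 and 5.51. The fold changes were 0.10, 0.16 and 0.10, each with an interval that included 0, and each changed sign when 1 array was left out. A dimmer probe set of Cyp7b1, also above background on all arrays, had 4.88 and 4.74 against 4.92 and 4.88. Its difference was -0.09, in the other direction, and the dimmest probe set, below background, had -0.02. The list of 6 had a median of 0.08, with 4 genes above and 2 below 0 and 0 past the threshold; the median was -0.016 without wild type 1.

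Among the steroid hormone enzymes Cyp11a1, which cleaves the cholesterol side chain in mitochondria, had 5.37 and 5.75 in knockouts and 5.56 and 5.78 in wild type (fold change -0.11, 95% interval -0.51 to 0.28). Its dimmer probe set, also above background on all arrays, had a fold change of 0.04. Cyp21a1, the steroid hydroxylase that makes deoxycorticosterone in the adrenal, had 5.46 and 5.46 against 5.51 and 5.38 (0.02, 95% interval -0.18 to 0.21). Cyp11b1, Cyp11b2 and Cyp17a1 were below the limit on every array. Of the 9 measured markers of steroid-making cells 5 were above the limit on all arrays, beside 70.2% of all genes. The list includes the family members Cyp11a1 and Cyp17a1. Among the 5 were Cyp11a1, the receptor Mc2r (8.75 and 9.33 in knockouts, 9.25 and 9.58 in wild type) and the factor Nr5a1 (5.81 to 6.02). Below the limit on every array were Cyp17a1, Hsd3b1, Hsd3b2 and Fshr. The steroid list of 5 had 1 gene above and 4 below 0, a median of -0.11 and 0 past the threshold. That median was -0.05 without knockout 1 or without wild type 2, and -0.04 when probe sets were averaged.

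Vitamin D and retinoic acid enzymes were at or near the limit. Cyp24a1, which inactivates vitamin D, had 4.62 to 4.70 and a fold change of -0.03 (95% interval -0.20 to 0.15), and the activating enzymes Cyp2r1 and Cyp27b1 were below background. Cyp26a1, which degrades retinoic acid, had 4.51 and 4.46 in knockouts and 4.40 and 4.76 in wild type, above the limit on 2 arrays, and a fold change of -0.09 (95% interval -0.43 to 0.24). Its relative Cyp26b1 passed the limit on 1 array. Cyp20a1, an orphan member with no settled substrate, had 5.27 and 5.44 in knockouts and 5.47 and 5.60 in wild type. Its fold change was -0.18 (SE 0.093, 95% interval -0.42 to 0.06, limma adjusted p = 0.755), -0.09 without knockout 1 and -0.11 without wild type 2. The groups did not overlap, but wild type 1 lay close to knockout 2.

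Across the family the median 95% interval reached 0.203 on either side of the fold change, and for 66 of 67 genes the interval stayed between -1 and 1. For 62 it stayed between -0.5 and 0.5. With 2 arrays per genotype the smallest p of an exact permutation test is 0.333, so the p-values given are those of the limma model, and the number of arrays limits the precision.

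The enzymes that act beside Cyp2e1 showed no common direction. Of 21 measured enzymes of ethanol, aldehyde and glutathione metabolism 10 were above and 11 below 0, with a median of -0.007 and 0 past the limma threshold, 2 of 21 at an unadjusted p under 0.05 (all genes, 7.01%). Catalase (Cat) had 11.94 and 11.97 in knockouts and 12.11 and 12.11 in wild type (-0.15, SE 0.063), glutathione reductase (Gsr) had -0.27 and glutathione synthetase (Gss) 0.17. The alcohol dehydrogenase Adh1 had -0.10 and the mitochondrial aldehyde dehydrogenase Aldh2 -0.15, both chosen after their values were seen. The 10 measured neighbours of Cyp2e1 on chromosome 7 had fold changes of -0.13 to 0.09, with a median of -0.06. Of these Sprn, 5830411N06Rik, Syce1, Zfp941 and Odf3 were below background on every array, among them the genes at both ends of that range.

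Supply of electrons to P450s and the making and breakdown of haem were read from 15 genes, all above background. The reductase of the endoplasmic reticulum was not among them. Of the 15 genes 10 were above and 5 below 0, with a median of 0.03. None passed the limma threshold, and 2 of 15 had an unadjusted p under 0.05 (all genes, 7.01%). Alas1, the rate-limiting enzyme of haem synthesis, had 10.49 and 10.22 in knockouts and 9.91 and 9.82 in wild type, a fold change of 0.49 (SE 0.111, limma adjusted p = 0.693). Alad, the next enzyme, had -0.23 and 0.04 by its dimmer probe set, and Hmox1, which degrades haem, had -0.35. The mitochondrial electron carrier Fdx1 and the microsomal cytochrome Cyb5a had 0.07 and -0.13. Of the 3 P450s with other symbols the prostacyclin synthase Ptgis had 8.47 and 8.52 against 8.30 and 8.21 (0.24, SE 0.070), the thromboxane synthase Tbxas1 had -0.04 and Cyp51, of cholesterol synthesis, 0.02.

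Receptors and factors that control P450 genes had 9 of 22 genes above and 13 below 0, with a median of -0.02 and 0 past the limma threshold, 3 of 22 at an unadjusted p under 0.05 (all genes, 7.01%). The xenobiotic receptor Nr1i2 was below background on every array and Nr1i3 passed the limit on 3. Cebpb, a factor of adipocytes and liver, had 11.10 and 11.12 in knockouts and 10.58 and 10.61 in wild type (0.51, SE 0.063, limma adjusted p = 0.585); over its 3 probe sets the difference ran from 0.08 to 0.63. The nuclear receptor Ppara had 9.17 and 8.57 in knockouts and 8.02 and 8.04 in wild type (0.84, SE 0.201, limma adjusted p = 0.693). Its 21 measured target genes had a median of 0.19, with 14 above and 7 below 0, a range from -1.26 for the thioesterase Acot1 to 1.11 for the fatty acid carrier Fabp3. Of them 0 passed the limma threshold and 10 of 21 had an unadjusted p under 0.05, beside 7.01% of all genes; the list was chosen with these data known, so nothing is read from that count. The thioesterases Acot1 and Acot2 thus lay on the same side as Cyp2e1, and Ucp3 (0.63) and Cpt1b (0.67) on the other. The dimmer probe sets of Acot2 and Ucp3 had -0.15 and 0.26. The brighter probe set of Acot2 carries the suffix s_at, so its probes may be shared with another transcript.

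Mean marker levels of the cell types in the gland were read beside the Cyp2e1 values. In each of the 5 lists given next the array means of the genotypes did not overlap. Among all genes measured singly, 37.6% did not overlap either, so nothing is read from this. The array means of the other lists are not given. Brown and beige adipocyte markers had means of 8.28 and 7.97 in knockouts and 7.68 and 7.59 in wild type, with 8 of 10 above 0, a median of 0.35 and Fgf21 below background. In this list Ucp1, Dio2 and Cox7a1 had 1.64, 1.03 and 0.82, so they weigh in its means. The lowest of the 3 probe sets of Dio2 had 0.08. White adipocyte markers had 10.50 and 10.68 against 10.40 and 10.19, with 6 of 9 above 0 and a median of 0.04. Among them Lep had 8.15 and 8.16 against 6.72 and 5.20, so the gap between that list's means leans on 1 gene. Luminal markers had 7.70 and 7.57 against 7.84 and 7.83, with 10 of 12 below 0, a median of -0.20 and Esr1 below background. Basal markers had 7.87 and 7.69 against 7.97 and 8.04, with 8 of 9 below 0. Hepatocyte markers had 4.60 and 4.58 against 4.54 and 4.51, with 7 of 14 above 0, and Alb had 7.10 and 7.54 against 7.15 and 6.34. Alb weighs likewise in the means of that list, where 10 of 14 genes were below background on every array. No gene of these 5 lists passed the limma threshold; 5 of 10 brown and beige, 3 of 9 white adipocyte, 4 of 12 luminal, 2 of 9 basal and 1 of 14 hepatocyte markers had an unadjusted p under 0.05, beside 7.01% of all genes. Sebaceous, endothelial, fibroblast and skeletal muscle markers had medians of 0.17, 0.17, 0.10 and 0.16, and macrophage and lymphocyte markers -0.07 and -0.02. Although the lymphocyte median lay below 0, the B-cell markers Ms4a1 and Cd79b had 0.76 and 0.50, without overlap of the genotypes. The lowest difference over the 2 probe sets of Ms4a1 was 0.21. The part of these cell types in the Cyp2e1 difference was not tested, and in whole tissue fewer cells of a type and less RNA per cell cannot be told apart.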

How the data were processed

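For each array 200 ng of total gland RNA was used on Affymetrix 3′ IVT PM arrays, per the labels' protocols. The deposited log2 values were made by the authors with RMA in affy, as the submitters' processing notes list; its settings and version: not given in the sources used here. The method includes quantile normalisation between arrays, so a shift common to most genes would not be seen.

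Of 45141 probe sets 104 controls were left out, 28898 carried 1 symbol and 551 several; 99.3% of the gene IDs of the former were in RefSeq's table and 0 symbols changed. The brightest probe set stood for a gene, since 7180 genes had several; the 67 P450 genes had 81. limma 3.58.1 (R 4.3.3) fitted genotype to all 17097 genes, with Benjamini-Hochberg adjustment over them, 2 residual and 2.96 prior degrees of freedom, and was tested on simulated data. Tables and plots used Python 3.11.15 with pandas 2.3.3 and matplotlib 3.10.9. Promoter windows came from RefSeq (GRCm38.p6).

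The members and lists were chosen with earlier results of these data known. The naming rule took Cyp2e1, the 8 P450 genes of smallest unadjusted p in each direction among those with a mean above the mean background limit, and in each role list the gene of smallest p among those above background on all 4 arrays; in other lists it took up to 3 genes of smallest p. Other genes named were chosen after their values were seen. Replicate numbers did not pair the arrays: deviations of same-numbered arrays correlated at -0.480. Alternatives were the rule for several probe sets, brightness filters, normalisation, variance settings, background limits, a replicate block and leaving out each array.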

Additional observations from a re-analysis of the deposited data

How the results depend on the processing

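Over all genes limma called 1 gene, Gadd45gip1. The count was 0 when a gene's probe sets were averaged, 2 with every probe set tested separately (with Prdx2 added), 2 with robust variances (with Itih4 added) and 0 to 1 with an array left out; without wild type 1 the called gene was Lep. With the replicate number as a block it was 0. The crossed pairing as a block, chosen after seeing the data, also gave 0. No P450 gene was called under any alternative, and 2 to 8 had an unadjusted p under 0.05, 2 among brighter genes only. Cyp2e1 kept its direction and missed the threshold in all of them. The number of P450 genes above background ranged from 8, with the 99th percentile of the controls, to 26 over the alternatives tried. The family's median ranged from -0.0329 to -0.000101 with an array left out. With the mean of probe sets the sign turned for Cyp21a1 (-0.00177), Cyp2b10 (-0.00873) and Cyp7b1 (-0.00608). With an array left out, small differences turned sign: Cyp11a1 ranged from -0.304 to 0.0776, Cyp21a1 from -0.0479 to 0.0840, Cyp24a1 from -0.0651 to 0.0147, Cyp26a1 from -0.271 to 0.0852 and Cyp27a1 from -0.0835 to 0.293. Likewise Cyp2b10 ranged from -0.00666 to 0.156, Cyp2j6 from -0.167 to 0.0190, Cyp39a1 from -0.0209 to 0.346 and Cyp7b1 from -0.0377 to 0.232. The cause was not tested. Signal near background limits most of the family: 42 members were below the limit on every array.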

Other observations

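Enzymes that conjugate the products of P450s, or act beside them, were read from 30 genes. Of these 15 were above and 15 below 0, with a median of 0.003 and 0 past the threshold by limma, and 4 of 30 had an unadjusted p under 0.05, beside 7.01% of all genes. Mgst2, a membrane glutathione transferase, had 8.19 and 8.40 in knockouts and 8.93 and 9.10 in wild type. The genotypes did not overlap, and the log2 fold change was -0.72 (SE 0.108, limma adjusted p = 0.651). The cytosolic glutathione transferase Gsta4 had 0.31 and the quinone reductase Nqo2 had 0.27, with 0.08 as the lowest of its 3 probe sets.

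By RefSeq's gene order 10 P450 genes lie on chromosome 7, 10 on chromosome 19, 10 on chromosome 4 and 9 on chromosome 17. Above background on all arrays were 4 of those on chromosome 7, 1 on chromosome 19, 3 on chromosome 4 and 5 on chromosome 17. The 6 Cyp3a genes all lie on chromosome 5. Tandem copies are alike in sequence, and 7 of the 81 P450 probe sets carry the suffix for probes shared between transcripts, so values of close relatives may share signal.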
